A study of Mus musculus with 12 samples.

Results

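The genes described here are the protein subunits of oxidative phosphorylation that are encoded in the cell nucleus. They were taken by rule from a deposited table of 54532 mouse genes: protein-coding genes with symbols that begin with Nduf, Uqcr, Cox4i, Cox5, Cox6, Cox7, Cox8 or Atp5, and also Sdha, Sdhb, Sdhc, Sdhd, Cycs and Cyc1. The rule gave 97 genes with 96 symbols, because the symbol Atp5o stands for 2 gene IDs. It also took in 8 assembly factors of complex I (the Ndufaf genes) and Atp5s, which is not part of the enzyme itself. RNA was sequenced in bulk from 12 mouse lung samples, 6 labelled as acute lung injury (ALI) and 6 labelled as control. The rule sets ALI against control with all samples and again without control sample 5 and ALI sample 2, which held fat transcripts. The series' design text names seawater drowning as the injury. Strain, sex, age, the time after injury and what the controls received are not given in the sources used here. Nor do the labels say that each sample came from an animal of its own, and p-values here rest on the spread between samples, part of which may be technical. In bulk RNA, fewer cells of a type and less RNA per cell cannot be told apart.

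Mitochondria make most of a cell's ATP by oxidative phosphorylation. Complex I takes electrons from NADH and complex II takes them from succinate. Ubiquinone carries them to complex III and the small protein cytochrome c carries them on to complex IV, which passes them to oxygen. Complexes I, III and IV pump protons across the inner membrane, and complex V, the ATP synthase, makes ATP as the protons flow back. Some core subunits are encoded in mitochondrial DNA and all the others in the nucleus. Complex IV also has tissue isoforms: Cox6a2, Cox7a1 and Cox8b belong to striated muscle, the last pair also to brown fat, Cox6b2, Cox7b2 and Cox8c to testis, and Cox4i2 to lung and to contractile cells of small vessels. Ndufa4l2 is a paralog of the complex IV subunit Ndufa4 that is induced when oxygen is low.

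The nuclear factors NRF1, GABP (of the ETS family) and YY1 are known regulators of many of these genes, so their letters were looked for in the promoters. The 150 bases before the RefSeq start are shown for Cycs, Sdhb, Sdhd and Cox8b. The first 3 are subunits that were higher in ALI once control 5 and ALI 2 were left out. They were picked because they held NRF1 or ETS letters, so they do not stand for the other higher subunits. Cox8b was the isoform that stood out most in control 5. Sequences are from RefSeq on build GRCm38.p6, at chr6:50566570-50566719, minus strand for Cycs, chr4:140961121-140961270, plus strand for Sdhb, chr9:50603850-50603999, minus strand for Sdhd and chr7:140900447-140900596, minus strand for Cox8b. They are written in the direction of transcription, and capitals mark the NRF1 letters in Cycs and Sdhb and the reverse complement of the ETS letters in Sdhd.
Cycs: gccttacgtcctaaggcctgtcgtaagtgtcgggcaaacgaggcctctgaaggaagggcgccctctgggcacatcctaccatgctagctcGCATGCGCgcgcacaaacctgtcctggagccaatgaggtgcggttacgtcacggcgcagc
Sdhb: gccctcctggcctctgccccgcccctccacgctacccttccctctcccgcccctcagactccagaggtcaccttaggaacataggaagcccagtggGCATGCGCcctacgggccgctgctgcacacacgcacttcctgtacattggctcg
Sdhd: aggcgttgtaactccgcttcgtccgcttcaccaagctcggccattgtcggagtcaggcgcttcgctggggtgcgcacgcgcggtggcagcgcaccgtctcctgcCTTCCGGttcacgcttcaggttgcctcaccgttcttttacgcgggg
Cox8b: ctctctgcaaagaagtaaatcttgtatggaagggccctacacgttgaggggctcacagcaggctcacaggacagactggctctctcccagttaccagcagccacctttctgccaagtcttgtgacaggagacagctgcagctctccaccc
The Cox8b stretch held none of the 3 motifs. RefSeq promoters, from 250 bases before to 50 bases after the start, were found for 75 of the 96 symbols. On either strand, the NRF1 letters GCATGCGC stood in 13 of the 75 (17.3%), against 3.05% of the 27025 genes in the promoter table. The ETS letters CCGGAAG stood in 18 (24%), against 9.93% of all genes, and the YY1 letters AAGATGGC in 10 (13.3%), against 3.19%. The ETS letters end in the 3 letters that begin the YY1 motif, and 0 of the 75 matched both in 1 stretch. Matches were found in 0 of the 4 complex IV tissue isoforms with a promoter entry. Of the subunits called higher in ALI without control 5 and ALI 2, 12 had a promoter entry. Among these, 2 of 12 (16.7%) held the NRF1 letters, against 9 of the 52 other subunits (17.3%). The ETS letters stood in 2 of the 12 (16.7%), against 14 of the 52 (26.9%). For the YY1 letters it was 1 of the 12 (8.33%), against 8 of the 52 (15.4%). A match is a string of letters and does not show binding.

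Each sample held between 15707937 and 19706494 counts. Levels are given as CPM (counts divided by the scaled size of each library), and 94 of the 97 members passed the filter on low counts. Cox7b2, Cox8c and the second Atp5o ID (ENSMUSG00000116933) had 0 counts in all 12 samples. A count of 0 allows up to 3 counts over the 12 samples together, or 0.0144 CPM, for counting error only. The lung label was met: 8 markers of alveolar type 2 cells, surfactant genes among them, summed to 28829.8 to 37487 CPM in ALI lungs, against 25384 to 32375 CPM in controls 1, 2, 3, 4 and 6 and 28186 CPM in control 5. In the test without control 5 and ALI 2, all 8 macrophage markers were called higher in ALI, with a sum of 1107 to 1423 CPM in ALI lungs, against 246 to 337 CPM in controls 1, 2, 3, 4 and 6 and 216 CPM in control 5. The 10 cell cycle genes were all called higher too, with a sum of 498 to 609 CPM in ALI lungs, against 70.9 to 109 CPM in controls 1, 2, 3, 4 and 6 and 51.1 CPM in control 5. All 8 capillary endothelial markers were called lower, with a sum of 2318 to 3127 CPM in ALI lungs, against 4791 to 5624 CPM in controls 1, 2, 3, 4 and 6 and 3592 CPM in control 5. Neutrophil markers were called higher in 6 of 6, erythroid markers lower in 6 of 6 and alveolar type 1 markers lower in 5 of 6. The part of these other cells in the members' results was not tested.

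One control stood apart from every other sample, and it did so in nearly every member. The members together made up 2.997% of all counts in control 5, against 0.511 to 0.641% in the ALI samples and 0.476 to 0.615% in the other controls. Their summed level was 5217 to 6332 CPM in ALI lungs, against 4731 to 6126 CPM in controls 1, 2, 3, 4 and 6 and 35291 CPM in control 5. Control 5 had the highest level of all 12 samples in 91 of the 94 tested members. It was at least 2 times the median of the other controls in 87 members and at least 10 times in 35, and the median ratio was 8.22. The ratio was 670.1 for Cox8b, 183 for Cox7a1, 23.97 for the complex III subunit Uqcrq, 22.7 for the complex I subunit Ndufa12 and 20.4 for Cycs, which is cytochrome c. It stayed under 2 in 7 members: Cox6a2 (0.822), Cox4i2 (1.11), Atp5g1 (1.13), Ndufa4l2 (1.36), Atp5s (1.42), Ndufaf7 (1.69) and Cox6b2 (1.77).

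Fat transcripts moved with this. Ucp1, the uncoupling protein that defines brown fat, had 2858 CPM in control 5 and 1.92 CPM in ALI 2, and 0 to 0.293 CPM in each of the other 10 samples, with 0 counts in the other 5 ALI samples and control 2. The 8 brown fat markers summed to 86.99 to 103 CPM in ALI lungs, against 98.7 to 118 CPM in controls 1, 2, 3, 4 and 6 and 3817 CPM in control 5. The 9 general fat markers summed to 987 CPM in ALI 2 and 14.7 to 22.9 CPM in the other ALI samples, against 15.7 to 49.9 CPM in controls 1, 2, 3, 4 and 6 and 7823 CPM in control 5. The 10 cardiac muscle markers did not set control 5 apart, with a sum of 66.8 to 435 CPM in ALI lungs, against 92.98 to 259.9 CPM in controls 1, 2, 3, 4 and 6 and 158 CPM in control 5. In ALI 2 the members' sum was the highest of the 6 ALI samples, but the median member was only 1.18 times the median of the other ALI samples there. Results are given with all 12 samples and without this pair.

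**Figure D1:**
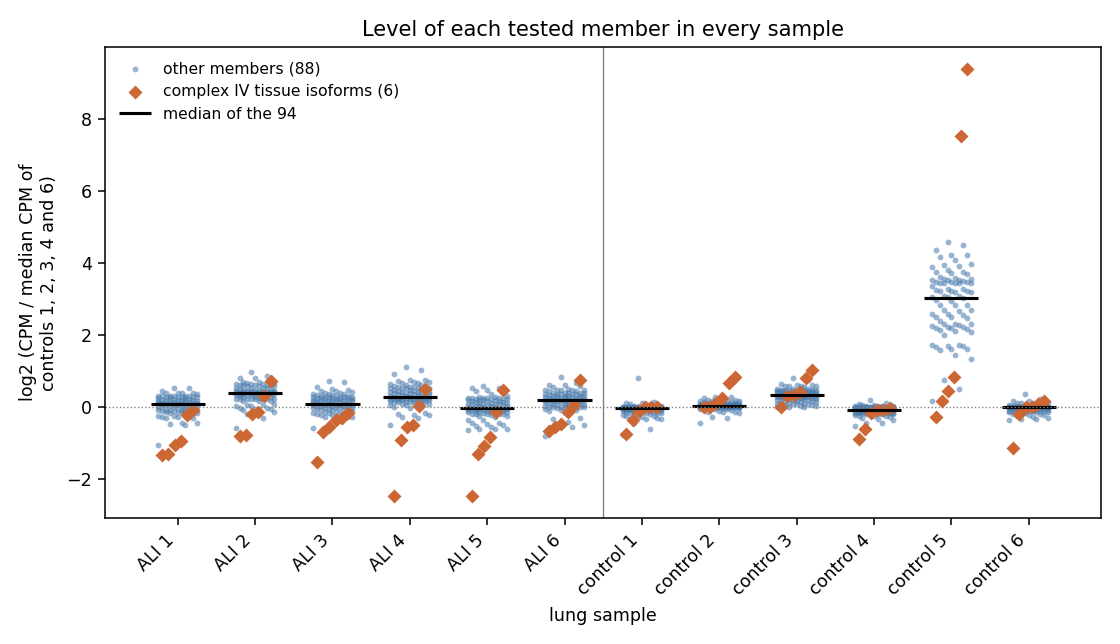
Level of each of the 94 tested members in every sample, as log2 of its CPM over the median CPM of controls 1, 2, 3, 4 and 6, with ALI samples on the left. Points are members, diamonds are the 6 tested complex IV tissue isoforms and bars are the sample medians. Control 5 is shifted upwards in nearly all members, with Cox8b and Cox7a1 at the top.

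With all 12 samples, no rise could be called in any member and a few members were lower in ALI. Calls were made at an adjusted p below 0.05 in edgeR's quasi-likelihood test with Benjamini-Hochberg adjustment over all 16185 genes tested. Of all genes tested 36.6% were called in either direction. Of the 94 members 0 were called higher, against 18.9% of all genes tested, and 7 were called lower, against 17.7% of all genes tested. The count of higher members was also 0 at an unadjusted p below 0.05 and 0 with DESeq2, and 8 with limma-voom with sample weights. The median log2 fold change, ALI over control, was -0.94 over the members and -0.06 over all genes, and 91 of the 94 members were below 0. The 7 lower members were Cox8b (-7.50 ± 2.35 SE), Cox7a1 (-4.96 ± 1.68), Ndufa4l2 (-0.98 ± 0.15), Cox6b2 (-0.78 ± 0.23), Cox4i2 (-0.77 ± 0.11), Atp5s (-0.55 ± 0.19) and Ndufaf7 (-0.50 ± 0.15). All ALI samples lay below all controls in 3 of these, Cox4i2, Ndufa4l2 and Ndufaf7, a pattern seen in 8.25% of all genes tested, and above all controls in 0 members, against 13.1%. Without control 5 alone, 22 members were called higher and 5 lower, and the median of the members was 0.12. The count of lower members was 4 without ALI 1, ALI 5 or ALI 6.

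Without control 5 and ALI 2, most members did not pass the test, 18 were higher and 6 were lower in ALI. Of all 16232 genes then tested 42% were called in either direction. The 18 higher members were 19.1% of the 94, against 22.1% of all genes, and the 6 lower were 6.38%, against 20% of all genes. The share called higher was near that of all genes. The members' median log2 fold change was 0.08, against 0.00 over all genes, with 60 of the 94 above 0, and single members ran from -1.40 to 0.58. All 5 ALI samples lay above all 5 controls in 4 members, against 16.5% of all genes, and below them in 3, against 13.9% of all genes. Between the 2 sets of samples, 5 members were lower in both (Cox4i2, Ndufa4l2, Cox6b2, Cox8b and Ndufaf7), 18 became higher, Ndufaf8 became lower, and Cox7a1 and Atp5s lost their calls. Apart from the test blocked on replicate number, 10 of the 18 higher calls and 4 of the 6 lower calls held under every alternative test, scaling and filter and without any single sample. With that block, only 5 of the 18 higher calls and 3 of the 6 lower calls were kept. The count of higher members depended on which controls were left in: it was 29 without control 3, 11 without control 4 and 11 without control 6. Control 3 had the highest members' sum of the 5 controls, 6126 CPM, against 4731 CPM in control 6, the lowest.

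**Figure D2:**
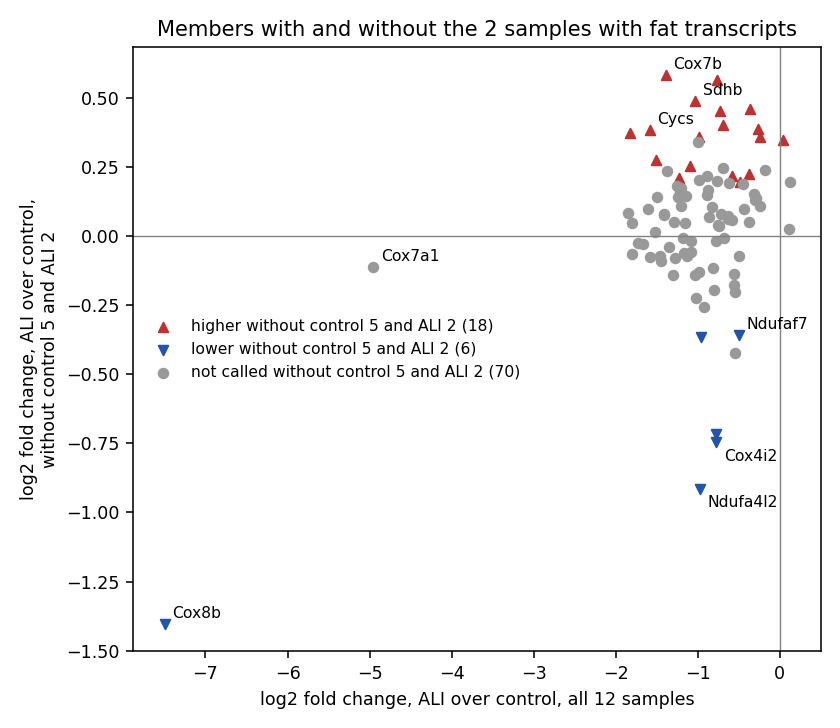
Log2 fold change of each tested member, ALI over control, with all 12 samples (horizontal) and without control 5 and ALI 2 (vertical). Of the 94 points 91 lie left of 0 on the horizontal axis, while they lie on both sides of 0 on the vertical axis, and Cox8b and Cox7a1 are farthest to the left.

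**Figure D3:**
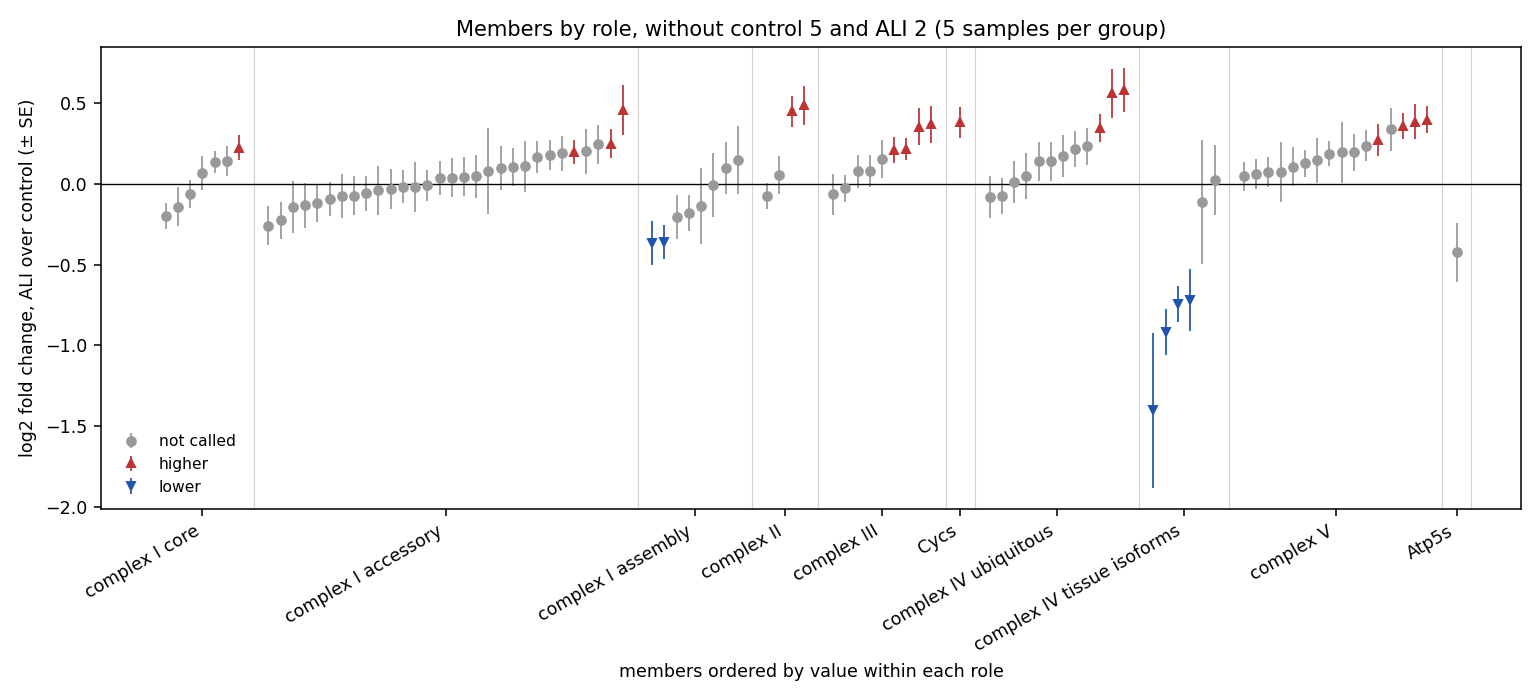
Log2 fold change of the 94 tested members without control 5 and ALI 2, ALI over control, with SE, grouped by role. Triangles pointing up are the 18 members called higher, triangles pointing down the 6 called lower, and circles the 70 not called. The lowest values belong to 4 complex IV tissue isoforms.

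Complex I, which oxidises NADH, moved little. Of its 30 tested accessory subunits, 3 rose and 0 fell without control 5 and ALI 2 (1 was lower at an unadjusted p below 0.05 in edgeR, and 0 were called lower by DESeq2 or limma-voom), and their median was 0.04 on the log2 scale. Of all genes tested in that set, 22.1% were called higher and 20% lower. The accessory subunits that rose were Ndufb1-ps (0.46), Ndufb5 (0.25) and Ndufa10 (0.20). These are small changes, and each call ended when single samples were left out. For Ndufb1-ps it ended without ALI 3 or control 1, 2 or 4 (log2 fold change 0.38 to 0.45). For Ndufb5 it ended without ALI 4 or 6 or control 1, 2, 4 or 6 (log2 fold change 0.20 to 0.25), and for Ndufa10 without ALI 3, 4, 5 or 6 or control 1, 2, 4 or 6 (log2 fold change 0.13 to 0.21). Ndufs8, a core subunit that holds iron-sulfur clusters, had a log2 fold change of -0.06 ± 0.09 and did not pass the test. The accessory subunits Ndufb9 (0.05 ± 0.13) and Ndufa12 (0.08 ± 0.27), which had the lowest values of the accessory subunits with all 12 samples (-1.81 and -1.85), did not pass it either. The 27 accessory subunits that were not called ran from -0.26 (Ndufb10) to 0.25 (Ndufa3), and the core subunits that were not called from -0.20 (Ndufv1, which binds NADH) to 0.14 (Ndufv2). Summed over the accessory subunits, levels were 757 to 1012 CPM in ALI lungs, against 760.4 to 1045 CPM in controls 1, 2, 3, 4 and 6 and 6609 CPM in control 5.

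Among the 8 factors of the rule that assemble complex I, a pair fell. Of these, 0 were higher and 2 were lower without control 5 and ALI 2. The count of higher factors was also 0 at an unadjusted p below 0.05, and 0 with DESeq2 and limma-voom. Over all genes in that set, 22.1% were called higher and 20% lower, so the share of lower factors was near that of all genes. Ndufaf7, a methyltransferase of the mitochondrial matrix, had 14.4, 14.2, 13.2, 15.6, 11.2 and 12.2 CPM in ALI samples 1 to 6, against 18.5, 15.9, 17.6, 15.96, 29.3 and 17.3 CPM in controls 1 to 6. Every ALI sample lay below every control, control 5 included. Its log2 fold change was -0.36 ± 0.11 without control 5 and ALI 2 (adjusted p = 0.0139, edgeR) and -0.50 ± 0.15 with all 12 samples (adjusted p = 0.0182, edgeR). Ndufaf8 averaged 8.09 ± 0.564 CPM in ALI lungs and 10.4 ± 1.88 CPM in control lungs (SD, n = 5 each), a log2 fold change of -0.37 ± 0.14, and the call ended without ALI 1, 4, 5 or 6 or control 1, 2 or 3 (log2 fold change -0.38 to -0.28). The other 6 ran from -0.20 (Ndufaf3) to 0.15 (Ndufaf5) and were not called.

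In complex II, succinate dehydrogenase, the iron-sulfur subunit and a membrane anchor rose and the other subunits did not pass the test. These were 2 of 4 subunits without control 5 and ALI 2, where 22.1% of all genes were called higher and 20% lower. Sdhb (ENSMUSG00000009863; GRCm38 chromosome 4, 140961203 to 140979193, plus strand), the iron-sulfur subunit, had 71.2 CPM at the lowest, 91.7 at the median and 113 at the highest of the 6 ALI samples, against 59.2, 60.4 and 84.4 CPM in the same order over controls 1, 2, 3, 4 and 6, and 801 CPM in control 5. ALI 3, the lowest ALI sample, lay below control 3, and the other 5 ALI samples lay above all controls but control 5. Its log2 fold change was 0.49 ± 0.12 without control 5 and ALI 2 (adjusted p = 0.004495, edgeR) and -1.03 ± 0.71 with all 12 samples (adjusted p = 0.287, edgeR). Sdhd (ENSMUSG00000000171; chromosome 9, 50596357 to 50603812, minus strand), which anchors the enzyme in the membrane, had 69.4, 90.7, 76.6, 95.7, 84.5 and 89.7 CPM in ALI samples 1 to 6, against 57.1, 62.4, 71.03, 54.1, 536 and 59.1 CPM in controls 1 to 6. Only ALI 1 lay below control 3, the highest of the other 5 controls. Its log2 fold change was 0.45 ± 0.10 (1.37-fold; adjusted p = 0.00133, edgeR). The flavin-bearing catalytic subunit Sdha averaged 202 ± 12.5 CPM in ALI lungs and 212 ± 21.7 CPM in control lungs (SD, n = 5 each; log2 fold change -0.07 ± 0.08, adjusted p = 0.49999, edgeR). The second anchor, Sdhc, averaged 88.1 ± 15.1 CPM in ALI lungs and 84.5 ± 12.1 CPM in control lungs (log2 fold change 0.06 ± 0.12). Whether the subunits differ from each other in their change was not tested.

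Complex III and cytochrome c, which pass electrons on to complex IV, held 5 higher members among 10. Of the 9 complex III subunits 4 rose and 0 fell (0 also at an unadjusted p below 0.05, and 0 with DESeq2 and limma-voom). Without control 5 and ALI 2 the 4 were 44.4% of the 9, against 22.1% of all genes called higher. The share of all genes called lower was 20%. Uqcrq had 45.3 CPM at the lowest, 51.99 at the median and 64.9 at the highest of the 6 ALI samples, against 33.5, 39.5 and 50.9 CPM in the same order over controls 1, 2, 3, 4 and 6, and 946 CPM in control 5. The groups overlapped, and the log2 fold change was 0.37 ± 0.11 (adjusted p = 0.0162, edgeR). The Rieske iron-sulfur protein Uqcrfs1 (0.36), the core protein Uqcrc2 (0.22) and cytochrome c1, Cyc1 (0.21), were called as well. For Uqcrfs1 the call ended without ALI 4 or 6 or control 4 or 6 (log2 fold change 0.28 to 0.34), and for Uqcrc2 without ALI 1 or control 6 (log2 fold change 0.17 to 0.19). For Cyc1 it ended without ALI 1, 4, 5 or 6 or control 1, 2, 4 or 6 (log2 fold change 0.16 to 0.23). Of the exon bases of Uqcrc2, 19.7% are shared with other genes, Pdzd9 sharing the most. The 5 complex III subunits that were not called ran from -0.06 (Uqcr11) to 0.15 (Uqcrh). Cytochrome c itself, Cycs (ENSMUSG00000063694; chromosome 6, 50562563 to 50566538, minus strand), had 28.4, 43.8, 32.5, 38.5, 33.9 and 33.6 CPM in ALI samples 1 to 6, against 24.8, 23.7, 29.9, 22.5, 507 and 26.7 CPM in controls 1 to 6. ALI 2 was the highest ALI sample and ALI 1 the lowest, just below control 3. Its log2 fold change was 0.38 ± 0.10 without control 5 and ALI 2 (adjusted p = 0.00545, edgeR), and -1.59 ± 0.86 with all 12 samples (adjusted p = 0.176, edgeR). Cycs, like several other of these subunits, has processed pseudogenes in the mouse genome. The sources used here do not say how reads that match several places were counted, so its counts are uncertain.

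Among the 12 subunits of complex IV that most tissues use, 3 rose and 0 fell without control 5 and ALI 2. The count of lower subunits was also 0 at an unadjusted p below 0.05, and 0 with DESeq2 and limma-voom. Over all genes in that set, 22.1% were called higher and 20% lower, so the share of higher subunits was near that of all genes. Cox7b (ENSMUSG00000031231; chromosome X, 106015700 to 106022450, plus strand) rose most, with 29.4, 38.1, 28.9, 47.9, 34.1 and 32.4 CPM in ALI samples 1 to 6, against 23.6, 22.7, 24.9, 18.3, 439.7 and 25.5 CPM in controls 1 to 6. All ALI samples lay above all controls but control 5, which was 18.6 times the median of the others. The log2 fold change was 0.58 ± 0.13 (1.498-fold; adjusted p = 0.00267, edgeR). Cox5a, a subunit on the matrix side, had 35.4 CPM at the lowest, 42.6 at the median and 58.9 at the highest of the 6 ALI samples, against 24.8, 27.3 and 38.5 CPM in the same order over controls 1, 2, 3, 4 and 6, and 303 CPM in control 5. It rose by 0.56 ± 0.15 log2 units (adjusted p = 0.00823, edgeR), with overlap between the groups. Cox7a2l, known for its part in joining complexes III and IV into supercomplexes, averaged 179 ± 13.9 CPM in ALI lungs and 140.2 ± 15.8 CPM in control lungs (SD, n = 5 each), with no overlap, and rose by 0.35 ± 0.08 log2 units (adjusted p = 0.003802, edgeR). Cox4i1, the common form of subunit 4, did not pass the test (0.22 ± 0.11, adjusted p = 0.1296, edgeR), nor did Cox6a1 (-0.08), Cox6b1 (0.05), Cox7a2 (0.14), Cox8a (0.17) Cox5b (0.23) or Ndufa4 (-0.07). Without control 3, Cox4i1 was called at a log2 fold change of 0.34.

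Of the 6 tested tissue isoforms of complex IV, counting Ndufa4l2, 4 fell and 0 rose without control 5 and ALI 2 (0 also at an unadjusted p below 0.05, and 0 with DESeq2 and limma-voom). The 4 were 66.7% of the 6, against 20% of all genes called lower, and 22.1% of all genes were called higher. Cox4i2 (ENSMUSG00000009876; chromosome 2, 152754173 to 152765037, plus strand), the lung form of subunit 4, had 20.3, 24.8, 28.9, 28.6, 23.8 and 28.6 CPM in ALI samples 1 to 6, against 42.1, 42.6, 53.2, 37.5, 46.999 and 42.2 CPM in controls 1 to 6. Every ALI sample lay below every control, and control 5 was among the others. It fell to 26.02 ± 3.86 CPM in ALI lungs, against 43.5 ± 5.81 CPM in control lungs (SD, n = 5 each), a log2 fold change of -0.74 ± 0.11 (adjusted p = 8.29e-05, edgeR). With all 12 samples the log2 fold change was -0.77 ± 0.11 (adjusted p = 6.43e-05, edgeR).

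Ndufa4l2 (ENSMUSG00000040280; chromosome 10, 127514967 to 127517154, plus strand) separated the groups in the same way, with 9.82, 14.3, 15.4, 17.7, 11.8 and 15.6 CPM in ALI samples 1 to 6, against 23.3, 29.4, 30.7, 24.4, 33.96 and 24.9 CPM in controls 1 to 6. No ALI sample reached the lowest control. The log2 fold change was -0.92 ± 0.14 without control 5 and ALI 2 (0.5297-fold; adjusted p = 0.000105, edgeR) and -0.98 ± 0.15 with all 12 samples (adjusted p = 0.000107, edgeR). Pericytes, the contractile cells around small vessels, express both genes, and most of the other markers of these cells that were looked at were lower too. Of 6 other pericyte markers, 5 (Cspg4, Pdgfrb, Higd1b, Trpc6 and Notch3) were called lower and Kcnj8 higher without control 5 and ALI 2, and their sum was 321 to 389 CPM in ALI lungs, against 494 to 638 CPM in controls 1, 2, 3, 4 and 6 and 407 CPM in control 5. In control 5 that sum lay below the other controls, while Cox4i2 (46.999 CPM) lay among them and Ndufa4l2 (33.96 CPM) above them. The part of these cells in the result was not tested.

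Cox6b2 was called lower with both sets of samples. This gene, the testis form of subunit 6b, had 3.52, 6.15, 5.37, 3.59, 2.78 and 4.94 CPM in ALI samples 1 to 6, against 5.36, 7.43, 6.83, 6.397, 12.1 and 7.25 CPM in controls 1 to 6. ALI 2 lay above control 1, and ALI 3 was level with it. Without control 5 and ALI 2 the log2 fold change was -0.72 ± 0.19 (adjusted p = 0.00726, edgeR), and the 4 testis markers summed to at most 0.539 CPM in any ALI sample and at most 0.186 CPM in any control. The 7 markers of ciliated cells summed to 74.5 to 245 CPM in ALI lungs, against 97.4 to 197 CPM in controls 1, 2, 3, 4 and 6 and 172 CPM in control 5.

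Cox8b (ENSMUSG00000025488; chromosome 7, 140898945 to 140900446, minus strand) had 0.404, 1.64, 0.345, 0.1797, 0.177 and 0.897 CPM in ALI samples 1 to 6, against 0.595, 0.991, 2.02, 0.646, 664 and 1.11 CPM in controls 1 to 6. Its log2 fold change was -7.50 ± 2.35 with all 12 samples (adjusted p = 0.0285, edgeR), -0.82 and not called without control 5 alone, and -1.40 ± 0.48 without ALI 2 as well (adjusted p = 0.0279, edgeR). The last call ended without ALI 1, 3, 4 or 5 or control 3 (log2 fold change -1.40 to -1.04). With all 12 samples, the call on Cox8b also ended without ALI 1, 3, 4, 5 or 6 in turn, at log2 fold changes of -7.64 to -7.31. That on Cox7a1 ended without any 1 of the 6 ALI samples, at -5.07 to -4.90, so the fitted changes stayed about as large. Cox7a1 (chromosome 7, 30184144 to 30186078, plus strand) had 0.924, 0.847, 0.789, 1.38, 0.887 and 1.01 CPM in ALI samples 1 to 6, against 0.974, 1.73, 1.69, 0.528, 178 and 0.446 CPM in controls 1 to 6. Its log2 fold change was -4.96 ± 1.68 with all 12 samples (adjusted p = 0.0382, edgeR), -0.15 and not called without control 5 alone, and -0.11 ± 0.39 without both. Cox6a2, the muscle form of subunit 6a, did not pass the test (0.02 ± 0.22). The 8 skeletal muscle markers summed to 3.19 to 9.48 CPM in ALI lungs, against 4.74 to 12.4 CPM in controls 1, 2, 3, 4 and 6 and 7.27 CPM in control 5, and the part of muscle in these values was not tested.

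**Figure D4:**
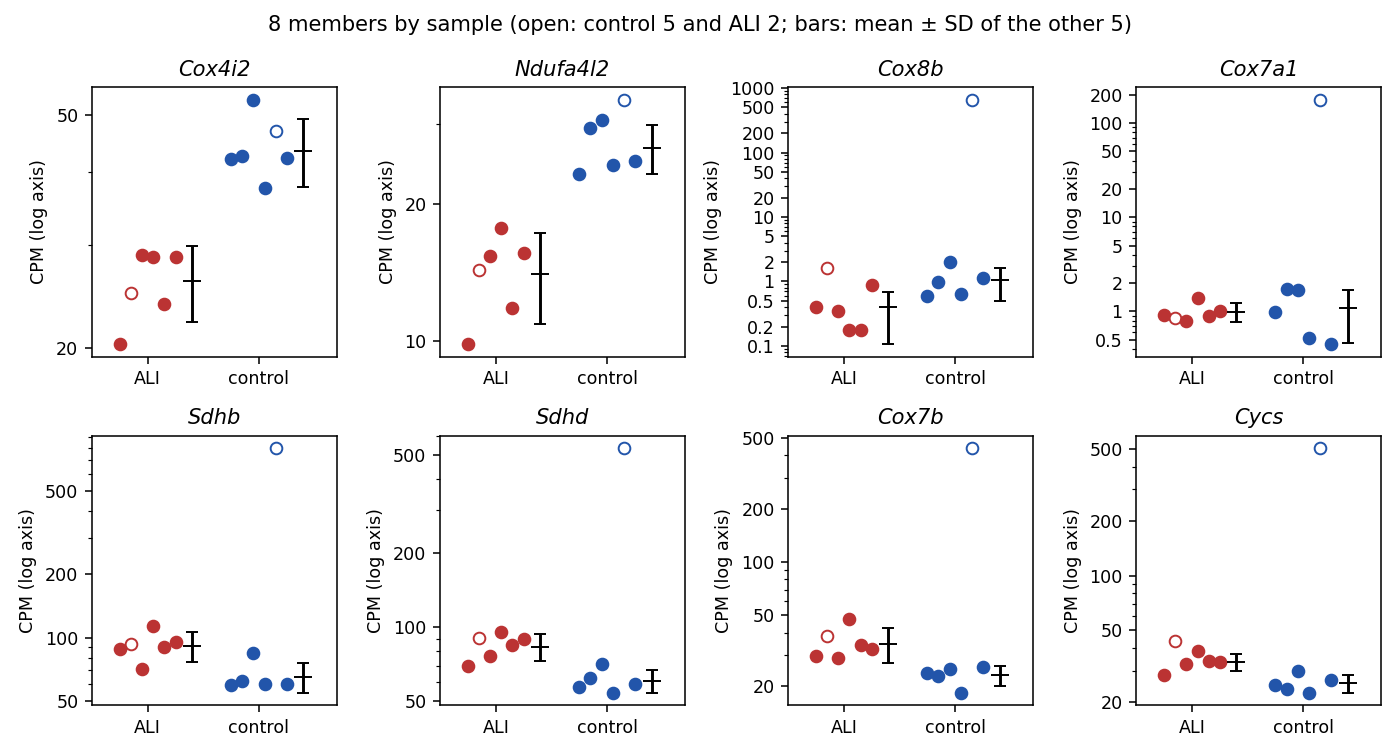
CPM of 8 members in each sample, on log axes, with ALI on the left and control on the right. Open circles are control 5 and ALI 2, and bars show the mean ± SD of the other 5 samples of each group. Cox4i2 and Ndufa4l2 separate the groups in all 12 samples, while control 5 stands far above all others in the remaining 6 genes.

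Ratios of an isoform to its common counterpart within each sample do not depend on how samples are scaled. They were computed from counts per kilobase of exon for 8 pairs and tested by two-sided exact permutation, with p adjusted over the 8 pairs. With all 12 samples 0 of the 8 pairs passed, and 1 (Cox8b to Cox8a) had an unadjusted p below 0.05, 0.0281. Without control 5 and ALI 2, 4 pairs were lower in ALI. The log2 ratio of Cox4i2 to Cox4i1 was -2.11, -2.14, -1.62, -1.90, -1.86 and -1.80 in ALI samples 1 to 6, against -0.77, -0.96, -1.0, -0.90, -3.82 and -0.76 in controls 1 to 6. Per kilobase, Cox4i2 thus stood at 0.276 of Cox4i1 in ALI lungs and 0.544 in control lungs, a log2 difference of -0.98 (exact permutation adjusted p = 0.0212, n = 5 each). Such ratios rest on the deposited gene lengths, while the log2 difference between the groups does not. Ndufa4l2 stood at 0.306 of Ndufa4 in ALI lungs and 0.561 in control lungs, a log2 difference of -0.87 with the same adjusted p. Cox6b2 to Cox6b1 differed by -0.79, again with no overlap and the same adjusted p. All 3 had the smallest unadjusted p that 5 against 5 samples allow, 0.00794. Cox8b to Cox8a differed by -1.61 (exact permutation adjusted p = 0.0476), with overlap. That call ended without ALI 4 or control 2, 3, 4 or 6 (log2 difference -1.70 to -1.30). Control 5 had the lowest ratio of all 12 samples in 6 of the 8 pairs and the highest in Cox8b to Cox8a and Cox7a1 to Cox7a2. Without control 5 alone, the Cox4i2 pair differed by -1.03, the Ndufa4l2 pair by -0.92 and the Cox6b2 pair by -0.75. The pairs Cox7a1 to Cox7a2 (-0.07), Cox6a2 to Cox6a1 (0.09), Atp5g1 to Atp5g2 (-0.01) and Atp5g1 to Atp5g3 (0.10) did not pass.

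**Figure D5:**
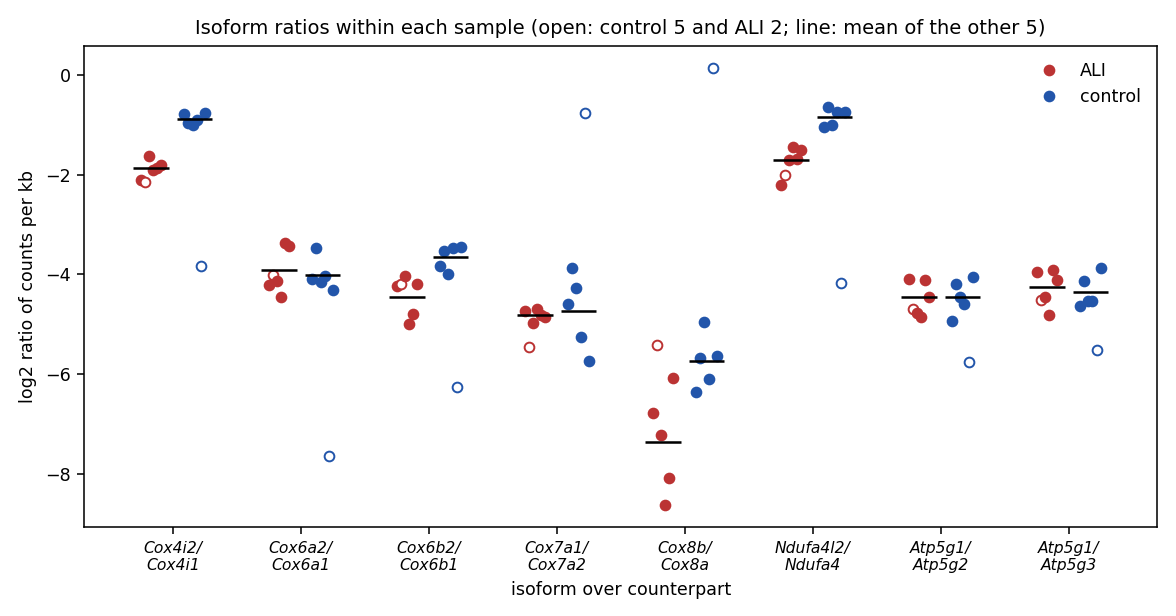
Log2 ratio of counts per kilobase, isoform over counterpart, in each sample for 8 pairs, with ALI left of control in each pair. Open circles are control 5 and ALI 2, and lines are means of the other 5 samples of each group. The Cox4i2 and Ndufa4l2 ratios are lower in every ALI sample than in the 5 controls, and control 5 lies outside the range of the other 11 samples in all 8 pairs.

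In complex V, the ATP synthase, 4 of the 16 tested subunits rose and 0 fell without control 5 and ALI 2. At an unadjusted p below 0.05 the count of lower subunits was also 0, as with DESeq2 and limma-voom. In that set 22.1% of all genes were called higher and 20% lower, so the share of higher subunits was near that of all genes. All 16 had positive log2 fold changes there. Atp5o (ENSMUSG00000022956; chromosome 16, 91925214 to 91931687, minus strand), part of the stalk that holds the catalytic head still, had 44.1, 48.2, 43.7, 43.8, 39.4 and 47.2 CPM in ALI samples 1 to 6, against 34.8, 32.2, 37.97, 28.5, 266 and 31.5 CPM in controls 1 to 6. All ALI samples lay above the 5 controls other than control 5. The log2 fold change was 0.40 ± 0.09 (adjusted p = 0.001503, edgeR). Of its exon bases 47.9% are shared with other genes, Gm15976 sharing the most, so its counts are uncertain. Atp5c1, the central rotating shaft, averaged 120.4 ± 12.5 CPM in ALI lungs and 93.7 ± 7.05 CPM in control lungs (SD, n = 5 each), also with no overlap, a log2 fold change of 0.36 ± 0.08 (adjusted p = 0.00221, edgeR). Atp5f1, the b subunit of the peripheral stalk, averaged 168 ± 26.2 CPM in ALI lungs and 128 ± 16.8 CPM in control lungs and rose by 0.39 ± 0.11 log2 units (adjusted p = 0.00926, edgeR). Atp5j2, a small membrane subunit, rose by 0.27 ± 0.10, and that call ended without ALI 4 or 5 or control 1, 2, 4 or 6 (log2 fold change 0.22 to 0.28). The 3 genes for the ring subunit c, Atp5g1 (0.20), Atp5g2 (0.24) and Atp5g3 (0.11), did not pass the test. Without ALI 1 Atp5g2 was called at 0.30, and without control 3 at 0.28. The 12 subunits that were not called ran from 0.05 (Atp5j) to 0.34 (Atp5mpl). Complex V summed to 1956 to 2324 CPM in ALI lungs, against 1698 to 2147 CPM in controls 1, 2, 3, 4 and 6 and 8521 CPM in control 5. Atp5s averaged 5.11 ± 1.23 CPM in ALI lungs and 6.86 ± 1.09 CPM in control lungs and had a log2 fold change of -0.42 ± 0.18, not called. It was called with all 12 samples (-0.55, adjusted p = 0.0328, edgeR), but not without ALI 1, 2, 5 or 6 or control 1, 3, 4 or 5 (log2 fold change -0.55 to -0.43), and it was called in the smaller set without ALI 3 (-0.57).

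Levels of different genes were compared as TPM, which divide counts by gene length. The deposited length equals all annotated exon bases together in 91 of the 97 members, so the order of genes depends on annotation. Atp5b and Atp5a1 averaged 557 and 576 CPM in ALI lungs (n = 5). With lengths of 4237 and 3135 bases, they had 404 and 565 TPM. In ALI lungs the highest members were Atp5a1, the alpha subunit of the ATP synthase head, at 565 ± 40.2 TPM, Cox6a1 at 520.2 ± 86.1 TPM and Cox8a at 518 ± 101 TPM (SD, n = 5), which did not differ beyond their spread. In control lungs the same genes had 531 ± 30.3, 566 ± 77.9 and 476 ± 50.97 TPM, in that order. Cox4i2 stood at 101 ± 13.9 TPM in ALI lungs and 175 ± 18.4 TPM in control lungs, while Cox4i1 stood at 366 ± 29.1 TPM in ALI lungs and 323 ± 48.2 TPM in control lungs. Cox8b had 3.44 ± 2.51 TPM in ALI lungs and 9.35 ± 4.62 TPM in control lungs, and 3433 TPM in control 5, where it was above Cox8a (3097 TPM).

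The subunits encoded in mitochondrial DNA, counted separately, showed no called change. Of the 13 genes 12 were tested, and 0 were called in either set of samples by edgeR. Of all genes tested, 36.6% were called with all 12 samples and 42% without control 5 and ALI 2. At an unadjusted p below 0.05 there were 0 with all 12 samples and 2 higher without control 5 and ALI 2, where DESeq2 called 2 higher and limma-voom 0. Their sum was 15518 to 29943 CPM in ALI lungs, against 17225 to 22169 CPM in controls 1, 2, 3, 4 and 6 and 108145 CPM in control 5, so the ALI samples spanned all controls but control 5. Without control 5 alone, edgeR called 1 of the 12. The share of these RNAs depends on how libraries were made, and no mitochondrial gene was set against a nuclear one.

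Of 39 further assembly factors tested, 4 rose and 2 fell without control 5 and ALI 2, and 1 rose and 2 fell with all 12 samples. Of all genes tested, 22.1% rose and 20% fell without control 5 and ALI 2, and 18.9% rose and 17.7% fell with all 12 samples. Coa5, a complex IV assembly factor, averaged 143 ± 13.7 CPM in ALI lungs and 104 ± 5.14 CPM in control lungs (SD, n = 5 each), with no overlap, a log2 fold change of 0.46 (adjusted p = 0.000143, edgeR) that was 0.37 with all 12 samples. Surf1, which also serves complex IV, averaged 27.6 ± 4.53 CPM in ALI lungs and 35.3 ± 3.34 CPM in control lungs, with every ALI sample below every control, a log2 fold change of -0.35 (adjusted p = 0.0171, edgeR). Sdhaf2, which puts flavin into Sdha, rose by 0.29 (adjusted p = 0.00887, edgeR). Sdhaf3 was called lower with all 12 samples (-0.77) and not without the pair (-0.46, adjusted p = 0.0942, edgeR).

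Enzymes of the citric acid cycle and pyruvate dehydrogenase, which feed complex I and complex II, held 3 higher and 2 lower of 18 without control 5 and ALI 2, and 0 higher (0 also at an unadjusted p below 0.05 and with DESeq2, and 1 with limma-voom) and 1 lower (Ogdh) with all 12 samples. The shares of all genes tested were 22.1% higher and 20% lower without control 5 and ALI 2, and 18.9% and 17.7% with all 12 samples. Idh3b, of the isocitrate dehydrogenase that makes NADH, averaged 74.5 ± 4.14 CPM in ALI lungs and 60.9 ± 2.72 CPM in control lungs (SD, n = 5 each; log2 fold change 0.29, adjusted p = 0.00253, edgeR). Citrate synthase, Cs, averaged 178 ± 6.85 CPM in ALI lungs and 146 ± 9.48 CPM in control lungs (log2 fold change 0.29, adjusted p = 0.00269, edgeR), and neither gene's groups overlapped. Ogdh, of the oxoglutarate dehydrogenase, fell by 0.20 on the log2 scale (adjusted p = 0.0335, edgeR). The list's sum was 1682 to 1947 CPM in ALI lungs, against 1564 to 1819 CPM in controls 1, 2, 3, 4 and 6 and 8242 CPM in control 5. Of 14 regulators of mitochondrial biogenesis, 1 rose and 1 fell without the pair, and 1 rose and 2 fell with all 12 samples. These counts stand beside the same shares of all genes. Ppargc1b, a coactivator of these genes, averaged 5.06 ± 1.73 CPM in ALI lungs and 1.89 ± 0.506 CPM in control lungs, a log2 fold change of 1.41 (adjusted p = 0.000984, edgeR), with ALI 3 within the controls. Polrmt, the mitochondrial RNA polymerase, fell by 0.30 on the log2 scale (adjusted p = 0.0275, edgeR). Ppargc1a, the related coactivator that marks brown fat, had 9.59 CPM in control 5 and was called lower with all 12 samples (-0.67, adjusted p = 0.0456, edgeR) and not without the pair (-0.42, adjusted p = 0.131, edgeR).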

How the data were processed

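RNA from 12 mouse lung samples (6 ALI, 6 control) was extracted with TRIzol and sequenced on a NovaSeq instrument from NEBNext Ultra libraries, per the labels' protocols. The deposited values are raw counts per gene. The authors' tools were fastp, HISAT2 and featureCounts and the builds GRCm38 and mm10, per the submitters' processing notes. Versions, strandedness and the treatment of reads that match several places are not given in the sources used here. Without strand, reads of overlapping genes cannot be told apart: Ndufa13, Ndufb6, Ndufaf2 and both Atp5o IDs have 20% or more of their exon sequence within exons of other genes. The deposited gene length, in bases, was used for counts per kilobase and TPM. Of the deposited gene starts 2.81% equal those of GRCm38, so coordinates were taken by gene ID from GENCODE M21 (GRCm38), where all 97 members were found.

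Counts were tested with edgeR 4.0.16 (R 4.3.3; TMM scaling, filterByExpr with a minimum count of 10, robust quasi-likelihood test), ALI over control, with Benjamini-Hochberg adjustment over all genes tested and a threshold of 0.05. CPM uses the TMM library sizes. DESeq2 1.42.0, limma-voom 3.58.1 with sample weights, 3 other scalings, 2 other filters, a replicate block and leaving out each sample were alternatives, as was leaving out control 5 and ALI 2. Isoform ratios used 0.5 added counts and, as an alternative, 2. The scripts were tested on simulated data. Totals of 15707937 to 19706494 counts set the precision, and intervals and floors cover counting error only. Samples were compared within groups: their 30 pairs all differed by more than sampling noise, with a chi-square divided by its degrees of freedom between 6.91 and 239.

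The members and all gene lists were chosen with earlier results of these data known. Genes named are both genes of each isoform pair, complex II, Cycs and Cyc1, in each role the called members of smallest p (4 at most) and the largest change, the 5 highest and 5 lowest members, and up to 3 called genes of each related list; 1 of these members is not reported here. Members named for the range of those not called, other genes of a count of 5 or fewer and markers named one by one were chosen after their values were seen.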

Additional observations from a re-analysis of the deposited data

Results flagged for a closer look

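In 35 of the 40 members the text names by rule, control 5 lay far from the other 5 controls: its gap to the next control was between 0.690 and 0.998 of the range of the 6 controls, above the critical value of Dixon's test for 6 samples. For 1 gene taken alone, chance gives such a mark in about 1 of 20 groups. The 35 marks all fall on 1 sample, which the rule had already set aside, so they are not separate tests. The following are levels in control 5 in CPM. In complex I they were Ndufa10 (251), Ndufa12 (80.1), Ndufb1-ps (44.8), Ndufb5 (378), Ndufb9 (254) and Ndufs8 (286), and in its assembly factors Ndufaf7 (29.3) and Ndufaf8 (44.7). In complex II they were Sdha (675), Sdhb (801), Sdhc (377) and Sdhd (536). In complex III and cytochrome c they were Cyc1 (848), Uqcrc2 (447), Uqcrfs1 (706), Uqcrq (946) and Cycs (507). In the subunits of complex IV that most tissues use they were Cox4i1 (1308), Cox5a (303), Cox6a1 (1147), Cox6b1 (597), Cox7a2 (530.2), Cox7a2l (353), Cox7b (439.7), Cox8a (907) and Ndufa4 (769.9), and in its tissue isoforms Cox6b2 (12.1), Cox7a1 (178) and Cox8b (664). In complex V they were Atp5c1 (399.8), Atp5f1 (601), Atp5g2 (228), Atp5g3 (251), Atp5j2 (779.7) and Atp5o (266). Fat transcripts moved with these levels, and their part in them was not tested. Among the ALI samples only ALI 4 stood apart in this way, with 1.38 CPM of Cox7a1.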

How the results depend on the processing

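With all 12 samples, limma-voom with sample weights called 8 members higher and gave a members' median log2 fold change of 0.13. Without control 5 and ALI 2, edgeR called 18 higher with a median of 0.077, and limma-voom 26 with a median of 0.13. Other assembly factors called were 5 with DESeq2, 5 with limma-voom and 6 without both samples. Citric acid cycle genes called were 2 with limma-voom, 2 with upper-quartile scaling, 0 without a filter and 5 without both samples, and biogenesis regulators 1 without a filter. Leaving out each sample gave 0 to 22 members higher, 4 to 8 lower, a median of -1.05 to 0.12, and 0 to 1 mitochondrially encoded genes, 2 to 5 assembly factors, 0 to 7 citric acid cycle genes and 1 to 4 biogenesis regulators called. The log2 isoform ratios without both samples differed by -0.98 (Cox4i2 to Cox4i1), -0.79 (Cox6b2 to Cox6b1), -1.61 (Cox8b to Cox8a), -0.87 (Ndufa4l2 to Ndufa4) and -0.015 (Atp5g1 to Atp5g2, with the sign turned). Leaving out each of the 12 samples gave -1.03 to -0.41, -0.75 to -0.19, -2.60 to -1.29, -0.92 to -0.22 and -0.055 to 0.29 for these pairs in that order.

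Without control 5 and ALI 2, leaving out each further sample gave 11 to 29 members higher and 4 to 7 lower. Uncalled values changed sign for Ndufa12 (-0.047 to 0.27, and -0.058 with limma-voom), Cox7a1 (-0.32 to 0.12, and 0.13 with limma-voom), Cox6a2 (-0.14 to 0.17, and -0.021 with upper-quartile scaling), Cox6a1 (-0.19 to 0.028), Ndufa4 (-0.13 to 0.034), Ndufb9 (-0.0067 to 0.15), Cox6b1 (-0.065 to 0.16) and Sdhc (-0.036 to 0.14). Ratios ranged over -0.32 to 0.15 for Cox7a1 to Cox7a2, -1.93 to -1.30 for Cox8b to Cox8a, -0.14 to 0.084 for Atp5g1 to Atp5g2 and -0.045 to 0.23 for Cox6a2 to Cox6a1.

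Replicate numbers showed no pairing of the samples in 1 check. Same-numbered samples correlated between -0.27 and 0.27 in their deviations from the group means, and 1 of 6 ALI samples correlated best with its own number. With 6 pairs this check cannot show that no pairing exists. With the replicate number as a block, 3 members were called lower with all 12 samples, and 1 assembly factor, 0 citric acid cycle genes and 1 biogenesis regulator were called. Without control 5 and ALI 2 the block, on the 4 complete pairs, gave 6 members higher, 3 lower and 0.26 for Cox7a1. Of these, 5 of the higher and 3 of the lower were also called without the block. For every change in this section the cause was not tested. The tests that leave samples out also hold fewer samples, and the part of that in the changes was not tested either.

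Depth limits the low isoforms: Cox8b and Cox7a1 were under 2.1 CPM in every sample but control 5. Alternatives for the smaller set were added after the data had been seen.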
